A study of Homo sapiens with 2 samples.

Results

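The genes described here encode the Aurora and polo-like mitotic kinases, their activators and the chromosomal passenger complex. They were taken by name from the deposited count table, and all 10 named genes were found among 60623 named rows. PLK1, PLK4, AURKA, AURKB and NEK2 are kinases. TPX2 and BORA are activating partners, and INCENP, BIRC5 and CDCA8 are the subunits that join AURKB in the passenger complex. The study compared 2 libraries of HCT116, a human colon carcinoma line with a WT genotype label. The siControl culture received a non-specific siRNA and the siKAT7 culture an siRNA against KAT7 (HBO1), a histone acetyltransferase. Both were transfected with Lipofectamine 2000 in McCoy's 5A medium, and neither the time after transfection nor the siRNA sequence was analysed here. Each group had 1 library, so no difference below has a replicate check.

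Entry into mitosis and the building of its spindle run on a small set of kinases. Aurora A (AURKA) acts at centrosomes and along the spindle, where TPX2 binds and activates it. With BORA as cofactor, Aurora A phosphorylates PLK1, which drives centrosome maturation, mitotic entry and cytokinesis. Aurora B (AURKB) works inside the chromosomal passenger complex with INCENP as scaffold and survivin (BIRC5) and borealin (CDCA8) as targeting subunits. That complex corrects faulty attachments of kinetochores to microtubules and later moves to the central spindle. PLK4 controls centriole duplication and NEK2 the separation of centrosomes. Transcripts of most of these genes are cell-cycle regulated, peak in G2 and mitosis, and are held down in resting cells by the DREAM complex through the cell cycle homology region, a short promoter element.

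Short promoter stretches are shown first, because cell-cycle regulation of these genes is tied to such elements. PLK1, INCENP and CDCA8 hold the same letters close to their RefSeq start. The sequences are from RefSeq on GRCh38.p14, each 30 bases on the strand of the gene. Capitals mark TTTGAA, a form of the cell cycle homology region, or, in AURKB, the NF-Y element CCAAT, which reads ATTGG because it lies on the opposite strand. The stretches lie at chr16:23678848-23678877 (PLK1, forward), chr11:62123989-62124018 (INCENP, forward), chr1:37692481-37692510 (CDCA8, forward), chr13:72727734-72727763 (BORA, forward) and chr17:8210361-8210390 (AURKB, reverse).
PLK1: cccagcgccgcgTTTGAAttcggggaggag
INCENP: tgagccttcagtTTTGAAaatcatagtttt
CDCA8: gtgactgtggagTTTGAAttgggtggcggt
BORA: aggctgcgttgaTTTGAAtttggagccacg
AURKB: accagcgcccagATTGGggctagtgtgctg

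The TTTGAA letters began 29 bases before the RefSeq start in PLK1, 10 before it in INCENP and 23 before it in CDCA8. In BORA it lay farther from the RefSeq start, 177 bases before it. The gene positions given below are from GENCODE 29, whose starts differ from these. The GENCODE start of BORA, 72727749, lies inside the printed stretch, so near and far hold for the RefSeq starts alone. Windows of 250 bases before to 50 after a start were present for 7 of the 10 genes and for neither AURKA, BIRC5 nor TPX2. On either strand TTTGAA occurred in the windows of 5 of those 7 (PLK1, PLK4, INCENP, CDCA8 and BORA) and in 15.2% of 35116 windows of all genes. CCAAT occurred in all 7 and in 34.6% of all windows. TTTAAA, another form of the region and its own reverse complement, was found in PLK1 alone and in 12.2% of all windows. The E2F forms TTTGGCG and TTTCGCG were found in 0 of the 7, against 1.92% and 1.32% of all windows. PLK4 has 3 windows and AURKB 2, and a gene was counted when any of its windows held the letters. A match of letters is a description of the sequence and not evidence of binding.

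The libraries were of nearly equal depth, with 23450326 counts over named genes in siControl and 23533134 in siKAT7. Levels are given as CPM, counts relative to library size after TMM scaling. The expected counts of KAT7 itself were 442.94 and 287.22 in siControl and siKAT7, a log2 ratio of -0.52 (95% counting interval -0.74 to -0.31). Its siKAT7 level was thus 69.6% of siControl, a difference short of the 1.5-fold used below. Among all tested genes 5.77% had a lower ratio than KAT7. Epithelial identity was visible in both libraries: KRT8 had 139208 and 133140 counts and EPCAM 4230 and 3950, although VIL1 (15.27 and 11.77), CDX1 (0 and 0) and CEACAM5 (2 and 0) were near or at 0. All 7 epithelial markers above 1 CPM had ratios above 0, with a median log2 ratio of 0.20. The lowest was 0.0025, so not all stay above 0 with library totals as the scale. The part of these markers in the results below was not tested. Of 17 fibroblast, blood and endothelial markers only the collagen gene COL1A1 passed 1 CPM, at 760 and 706 counts, and the defining blood and endothelial genes PTPRC and PECAM1 had 0 in both libraries.

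BIRC5, AURKB and PLK1 were the most abundant of the 10 transcripts per length of gene model, and PLK4 and BORA the least. In siControl the level was 129.5 CPM per kilobase for BIRC5 (95% counting interval 126.8 to 132.3), 107.8 for AURKB (104.1 to 111.5) and 100.8 for PLK1 (98.1 to 103.6). CDCA8 (38.9), INCENP (36.8), TPX2 (24.1), AURKA (14.0) and NEK2 (7.82) followed, all in CPM per kilobase. BORA (0.718) and PLK4 (0.642) lay more than an order of magnitude below NEK2 on that scale. The intervals overlapped between CDCA8 and INCENP and between BORA and PLK4, so those neighbours in the order could not be told apart by counting error alone. In siKAT7 the order was the same, and there BIRC5 (123.4, 120.7 to 126.2) and AURKB (120.2, 116.2 to 124.3) overlapped as well. The lengths are those in the deposited table, so an alternative transcript model would move these levels.

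**Figure D1:**
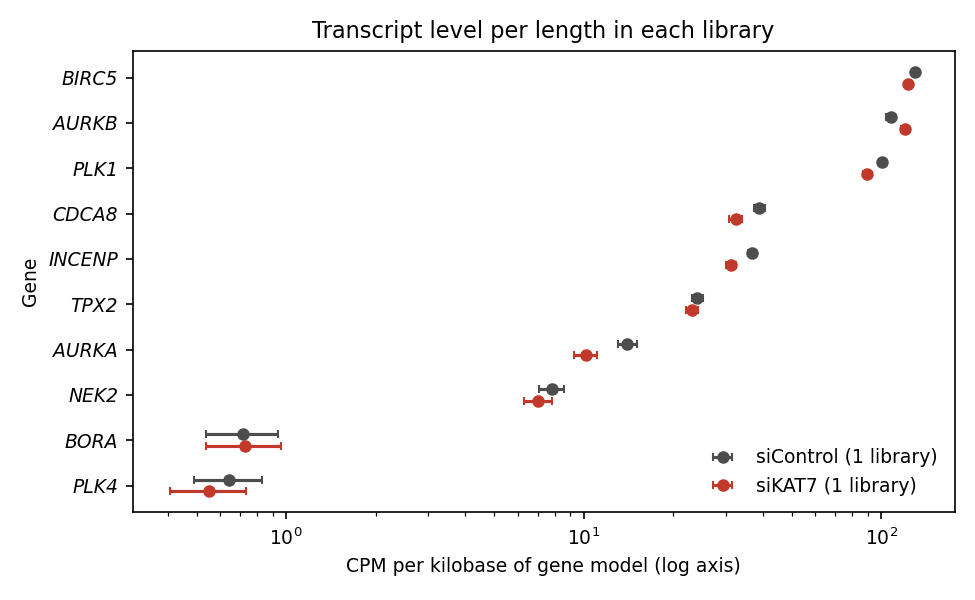
Transcript level of each gene in CPM per kilobase of gene model (horizontal log axis) in the siControl library (grey) and the siKAT7 library (red), with exact 95% Poisson counting intervals. BIRC5, AURKB and PLK1 lie near 100 and PLK4 and BORA below 1 in both libraries, and AURKB is the well-counted gene whose red point lies to the right of its grey one.

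Between the libraries, 8 of the 10 genes had a log2 ratio of siKAT7 over siControl below 0, and none differed by 1.5-fold. The median log2 ratio was -0.16, beside 0.00 (-0.0048) over the 13217 genes averaging 1 CPM or more, of which 50.7% had a ratio below 0. At 1.5-fold with an interval that excluded 0, 0 of 10 were lower and 0 of 10 higher, where 3.91% and 3.92% of all tested genes were. At any fold, counting intervals lay below 0 for 5 of the 10 (AURKA, CDCA8, INCENP, PLK1 and BIRC5) and above 0 for 1 (AURKB). The shares over all tested genes were 22.0% below and 23.0% above. Of the 10 genes, 8 averaged 10 CPM or more, where intervals are narrower, as did 7834 genes in all. Among those 8 the counts were again 5 below and 1 above, against 26.7% and 30.0%, and 0 lower and 0 higher at 1.5-fold, against 0.766% and 1.39%. This rule at any fold was chosen after the data were seen. In bulk RNA a smaller number of cells in G2 and mitosis and less RNA per cell cannot be told apart.

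The scaling sets where 0 lies. With library totals in place of TMM factors, log2 ratios moved by -0.11, the median of the 10 became -0.27 and that of all tested genes -0.11. BORA then turned from 0.02 to -0.09, which left 9 of 10 below 0, and intervals lay below 0 for 7 and above 0 for none. Over all genes the 1.5-fold calls shifted from 517 lower and 518 higher to 843 lower and 355 higher. The other 9 genes kept their sign under all 5 alternatives for a single gene's ratio.

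**Figure D2:**
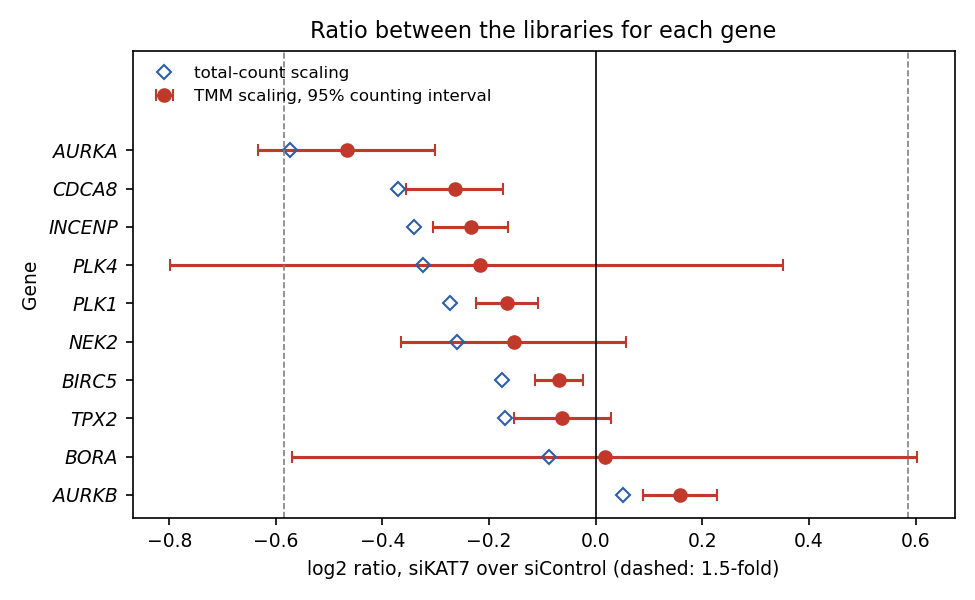
Log2 ratio of siKAT7 over siControl for each gene (red circles with 95% counting intervals, TMM scaling) and the same ratio with library totals as the scale (open blue diamonds); dashed lines mark 1.5-fold. AURKA has the lowest ratio (-0.47), AURKB the highest (0.16), and the wide intervals of PLK4 and BORA rest on about 50 counts per library.

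AURKA had the lowest ratio of the set. The siControl library held 740 AURKA counts and the siKAT7 library 499, equal to 30.4 and 22.0 CPM. The siKAT7 level was thus 72.4% of the siControl level (64.5% to 81.2%), a log2 ratio of -0.47 (-0.63 to -0.30). Among all tested genes 7.39% had a lower ratio, and the central 95% of the 6076 genes between 10 and 100 CPM ran from -0.49 to 0.48, so AURKA lay inside that range near its lower end. In the authors' deposited table its log2 fold is -0.57. On GRCh38, AURKA (ENSG00000087586) spans positions 56369389 to 56392337 of chromosome 20 and reads in reverse. Its annotated start is 34 bases from that of CSTF1, a cleavage stimulation factor subunit transcribed in the opposite direction. CSTF1 had 179 counts in siControl and 124 in siKAT7, a log2 ratio of -0.43 (-0.77 to -0.09). The ratios of this head-to-head pair were thus close to each other, on intervals that overlap widely.

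TPX2, which activates Aurora A on the spindle, had a ratio nearer to 0 than its kinase. Its 2115 siControl and 1887 siKAT7 counts gave 86.9 and 83.2 CPM and a log2 ratio of -0.06 (-0.15 to 0.03). BORA, the cofactor through which Aurora A reaches PLK1, had 52.98 and 50.46 expected counts and a log2 ratio of 0.02 with an interval from -0.57 to 0.60. At that depth a change of up to about 1.5-fold in either direction was not detectable for BORA. NEK2, a kinase of the centrosome linker, had 406 and 340 counts, 16.7 and 15.0 CPM, and a log2 ratio of -0.15 (-0.37 to 0.06). The intervals of these 3 genes included 0, which does not show that their levels were equal.

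PLK1 was well counted and slightly lower in siKAT7. Its expected counts were 5299.99 for siControl and 4398 for siKAT7, equal to 217.8 and 194.0 CPM. Its siKAT7 level was 89.1% of siControl (85.6% to 92.7%), a log2 ratio of -0.17 (-0.23 to -0.11). The central 95% of the 1758 genes above 100 CPM ran from -0.32 to 0.55, and PLK1 lay within it, with 27.8% of all tested genes at a lower ratio. PLK4, its relative in centriole duplication, had 60 counts in siControl and 48 in siKAT7. The log2 ratio of PLK4 was -0.22, but the interval from -0.80 to 0.35 left its direction undetermined. Genes of 1 to 3 CPM like PLK4 and BORA had a central 95% of log2 ratios from -1.38 to 1.32. PLK1 (ENSG00000166851) is on chromosome 16 at 23677656 to 23690367, forward strand, and PLK4 (ENSG00000142731) on chromosome 4 at 127880861 to 127899195, forward strand.

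The 4 genes of the chromosomal passenger complex did not share a direction. AURKB, the kinase, had 3289 siControl and 3418 siKAT7 counts, equal to 135.1 and 150.7 CPM. Its siKAT7 level was 111.5% of siControl (106.3% to 117.0%), a log2 ratio of 0.16 (0.09 to 0.23). INCENP, the scaffold, had 3684 and 2918 counts, 151.4 and 128.7 CPM, and a log2 ratio of -0.23 (-0.30 to -0.16). CDCA8 had 2244 and 1741 counts, 92.2 and 76.8 CPM, and a log2 ratio of -0.26 (-0.36 to -0.17). BIRC5 had 8545.09 and 7587.92 expected counts, 351.1 and 334.6 CPM, and a log2 ratio of -0.07 (-0.11 to -0.02). AURKB was higher in siKAT7 and the other 3 were lower, and no 2 of the intervals for AURKB, BIRC5 and INCENP overlapped.

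Summed over the 4 subunit genes, counts were 17762.1 in siControl and 15664.9 in siKAT7, a log2 ratio of -0.08 (-0.11 to -0.05). Without AURKB the sum of the other 3 had a log2 ratio of -0.14 (-0.17 to -0.10). AURKB made up 18.5% of the counts of the 4 genes in siControl (exact Clopper-Pearson interval 17.9% to 19.1%) and 21.8% in siKAT7 (21.2% to 22.5%). These shares do not depend on the scaling, and their intervals do not overlap. With library totals as the scale the AURKB log2 ratio was 0.05 and that of the sum -0.19, so the position of AURKB above 0 is less firm than its position above the other subunits.

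Gene length moved with the ratios in these libraries. Tested protein-coding genes were split by model length into 4 classes of nearly equal size. The shortest class had a median log2 ratio of 0.09, and the medians of the next classes were -0.01, -0.05 and -0.06. AURKB, at 1254 bases, was the only one of the 10 genes in the shortest class, and its ratio of 0.16 stood beside that median of 0.09. In the class from 1845 to 2975 bases, PLK1, AURKA, BIRC5, CDCA8 and NEK2 had a median of -0.17 against -0.01 for the class. In the class from 2976 to 4707 bases, PLK4, INCENP, TPX2 and BORA had -0.14 against -0.05. The part of length in the ratio of AURKB was not tested.

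Differences between 2 of the genes are free of the scaling, because both are read in the same pair of libraries. Of 45 pairs, 18 differed by an exact 95% interval that excluded 0, and 15 did so at 99%. The share among pairs of other genes of like depth was not tested. Single-gene intervals lay below 0 for 22.0% of all tested genes and above 0 for 23.0%, so other pairs can differ as well. The pair counts therefore describe these genes and do not set them apart from others. AURKA was in 7 of the 18 and AURKB in 7, 1 of them shared. The largest of these was the pair of Aurora kinases itself: the log2 ratio of AURKA was lower than that of AURKB by 0.62 on the log2 scale, or 1.54-fold (interval 1.36 to 1.75). Of the 28 pairs with neither Aurora kinase, 5 had intervals that excluded 0. These were BIRC5 against CDCA8, INCENP and PLK1, and TPX2 against CDCA8 and INCENP. PLK4 and BORA were in none of the 18.

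**Figure D3:**
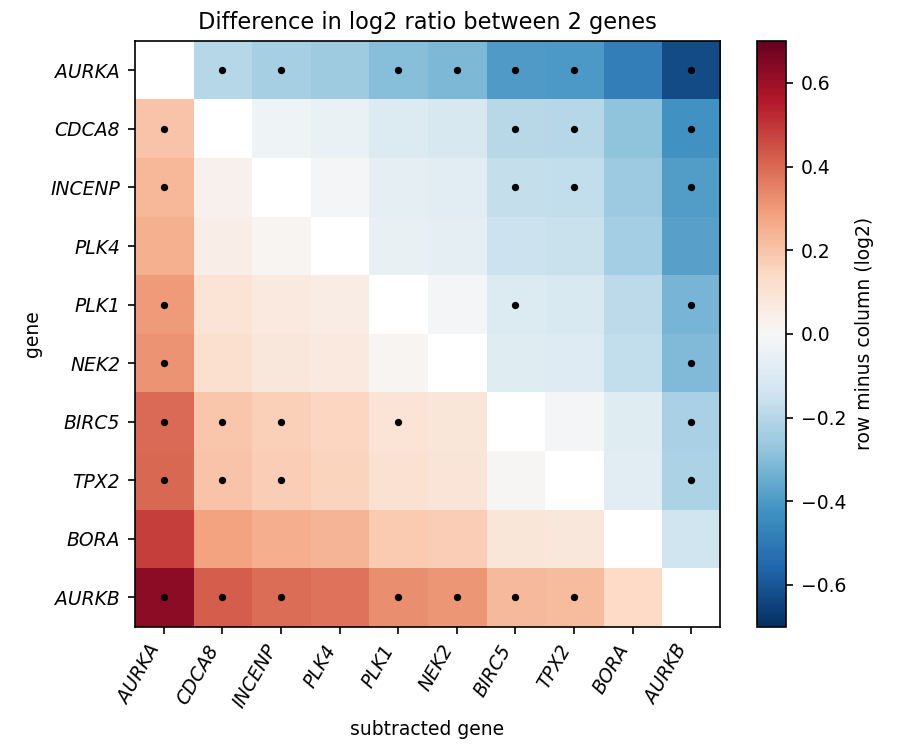
Difference in log2 ratio between each pair of genes, row minus column (colour, log2 units); dots mark the 18 pairs whose exact 95% interval excluded 0. The AURKA row is blue and the AURKB row red throughout, and both hold most of the dots.

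Partner by partner, AURKA lay below TPX2 by a log2 difference of -0.40 (-0.59 to -0.21). It also lay below PLK1, with a difference of -0.30 (-0.48 to -0.12), and below NEK2, with -0.31 (-0.58 to -0.04). Inside the passenger complex, AURKB lay above CDCA8 by 0.42 (0.31 to 0.54), above INCENP by 0.39 (0.29 to 0.49) and above BIRC5 by 0.23 (0.14 to 0.31). PLK1 and its cofactor gene BORA differed by an interval that included 0 (BORA minus PLK1 0.19, -0.41 to 0.77), as did PLK1 and PLK4 (0.05, -0.52 to 0.63). These intervals cover counting error only, and the spread of such differences between cultures is unknown.

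**Figure D4:**
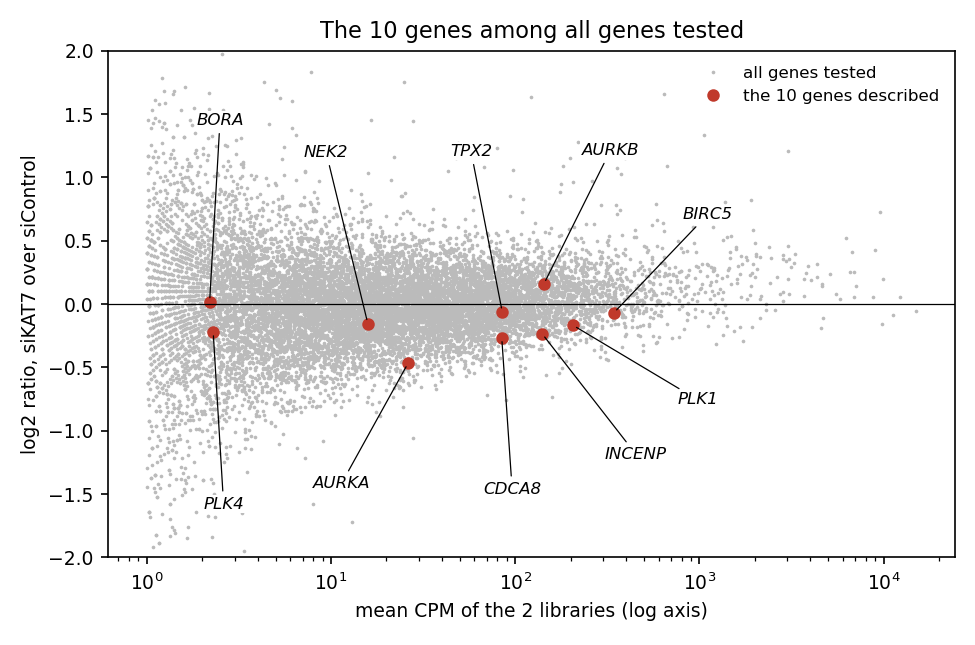
Log2 ratio of siKAT7 over siControl against mean CPM (log axis) for all 13217 genes tested (grey) with the 10 genes named (red). The vertical axis is limited to 2 log2 units in either direction, which leaves 48 genes outside; the 10 genes lie within the cloud at their levels, with AURKA near its lower edge.

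Domain labels in the deposited annotation split the set evenly. A protein kinase domain was listed for PLK1, PLK4, AURKA, AURKB and NEK2, with polo boxes in addition for PLK1 and PLK4. The 5 kinases ranged in log2 ratio from -0.47 to 0.16 with a median of -0.17, and 4 were below 0. The 5 without that domain ranged from -0.26 to 0.02 with a median of -0.07, and 4 were also below 0. BIRC5 carried an inhibitor of apoptosis repeat, INCENP an Aurora-binding region and TPX2 an Aurora A binding region.

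Copies and overlapping genes could share reads with the 10 genes. The 4 pseudogenes named after AURKA and NEK2 (AURKAP1, AURKAP2, NEK2P2 and NEK2P4) had 0 counts in both libraries. Counts were whole in both libraries for 7 of the 10 genes, and PLK1, BIRC5 and BORA carried fractional counts. BORA overlaps DIS3, an exosome nuclease gene on the opposite strand, over 4030 bases. DIS3 had 239.02 and 236.54 expected counts, and BORA and DIS3 summed had a log2 ratio of 0.08 (-0.16 to 0.32). The strand setting of the counting is unknown, so BORA reads in the shared stretch are uncertain. PLK1 overlaps ERN2 by 42 bases and an antisense RNA, and those had at most 9 counts in a library.

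BORA and CDCA8, like AURKA, have a protein-coding neighbour that starts close by on the other strand. MZT1, a gene for a gamma-tubulin complex protein that starts 62 bases from BORA, had 580 counts in siControl and 432 in siKAT7, a log2 ratio of -0.32 (-0.51 to -0.14). C1orf109 starts 169 bases from CDCA8 and had 877 and 764 counts, a log2 ratio of -0.10 (-0.24 to 0.05). CDCA8 (ENSG00000134690) is on chromosome 1 at 37692418 to 37709719 and BORA (ENSG00000136122) on chromosome 13 at 72727749 to 72756198. INCENP (ENSG00000149503) is on chromosome 11 at 62123973 to 62153163, TPX2 (ENSG00000088325) on chromosome 20 at 31739271 to 31801805 and BIRC5 (ENSG00000089685) on chromosome 17 at 78214186 to 78225636, all 5 on the forward strand. AURKB (ENSG00000178999), at 8204733 to 8210600 of chromosome 17, and NEK2 (ENSG00000117650), at 211658657 to 211675630 of chromosome 1, are on the reverse strand.

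Medians lay below 0 in all 9 further lists, of which 8 hold genes that act with or regulate these kinases and 1 holds family relatives. Together the lists hold 149 genes, of which 140 passed 1 CPM, and 99 of those (70.7%) had ratios below 0 and 41 above, beside 50.7% below 0 over all tested genes. Their median log2 ratio was -0.15. At 1.5-fold 8 were lower, 3 were higher and 129 passed neither way, beside the 3.91% lower and 3.92% higher of all tested genes. Those same shares are the background of the 1.5-fold calls in each list below. Calls on 1 to 3 genes of a list are too few to set it apart from them. The list of cofactors and spindle substrates of Aurora A also holds genes of other roles, such as RAN, RANGAP1, KPNA2, KPNB1 and CCNF. It was not recomputed without them. The whole list had a median of -0.22, with 11 of 15 below 0 and 1 at least 1.5-fold lower. That gene was CEP192, the centrosomal scaffold that recruits Aurora A and PLK1, with 64 and 37 counts and a log2 ratio of -0.68 (-1.31 to -0.08). KPNA2, the importin that holds TPX2 inactive, had 3220.97 and 2112.65 expected counts and a log2 ratio of -0.51 (-0.59 to -0.43). TACC3, a microtubule protein phosphorylated by Aurora A, had -0.31 (-0.37 to -0.25). Intervals at any fold lay below 0 for 6 of the 15 and above 0 for 3, beside 22.0% and 23.0% of all tested genes. Those above 0 were AJUBA, an activator of Aurora A, at 0.27 (0.14 to 0.39), and KPNB1, the importin partner of KPNA2, at 0.19 (0.10 to 0.28). RANGAP1, which stimulates GTP hydrolysis by Ran, was also above 0, at 0.15 (0.10 to 0.20). All genes with a ratio given here except CEP192 were chosen after their values were seen.

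**Figure D5:**
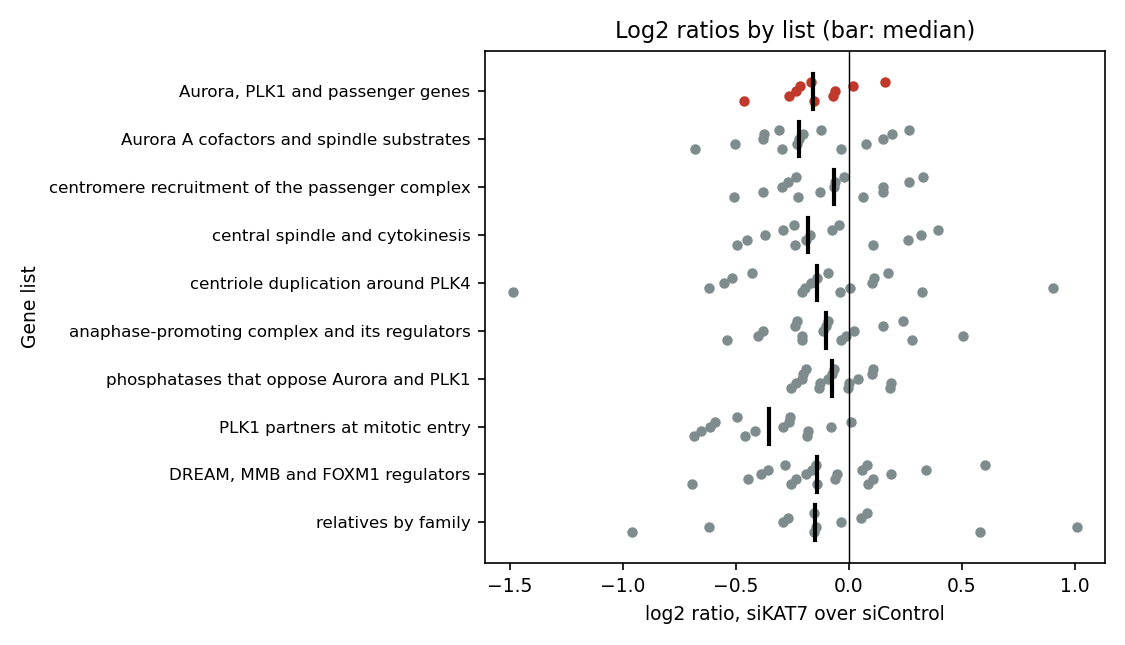
Log2 ratio of siKAT7 over siControl for each measured gene of the Aurora, PLK1 and passenger set (red) and of 9 further lists, 8 of partners or regulators and 1 of family relatives (grey), with the median of each as a black bar. Every median lies below 0, and the list of PLK1 partners at mitotic entry has the lowest, at -0.35.

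The list of PLK1 partners at mitotic entry had the lowest median of the 9, -0.35, with 13 of 14 genes below 0. Of these, 3 were at least 1.5-fold lower and none higher. CCNB2 and CCNA2, cyclins that activate CDK1, had log2 ratios of -0.66 (-0.81 to -0.50) and -0.61 (-0.78 to -0.45). TOPORS, a ubiquitin and SUMO ligase, had -0.69 on 59 and 33.69 expected counts. CDC25C, a phosphatase that PLK1 activates, had -0.46 (-0.70 to -0.22), and WEE1, a kinase that PLK1 marks for degradation, had -0.50 (-0.69 to -0.31). CDK1 had -0.18 (-0.33 to -0.04). Genes on opposite sides of the CDK1 switch thus had ratios below 0 alike. TOPORS, CDC25C, WEE1 and CDK1 were chosen after their values were seen.

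The list for centromere recruitment of the passenger complex had a median of -0.07, with 10 of 15 below 0 and 0 past 1.5-fold. It also holds genes of other roles, such as RCC1, KIF2C and SPDL1, and was not recomputed without them. Over the 10 genes of the list that averaged 10 CPM or more the median was -0.23. The most counted were RCC2, at -0.22 (-0.28 to -0.17), and RCC1, at 0.15 (0.09 to 0.21). HASPIN and BUB1, the kinases whose histone marks recruit the complex, had log2 ratios of -0.38 (-0.61 to -0.15) and -0.51 (-0.74 to -0.28), the lowest of the list. BUB1B, a spindle checkpoint protein, had 0.27 (0.02 to 0.51). HASPIN, BUB1 and BUB1B were chosen after their values were seen. Genes of the central spindle and cytokinesis had a median of -0.18, with 10 of 14 measured below 0 and 0 past 1.5-fold. The list holds PIF1, a DNA helicase that does not belong to it by function, and without PIF1 the counts were 9 of 13 and the median -0.17. In that list CIT, a cytokinesis kinase, had -0.24 (-0.38 to -0.11), and VPS4A, an ATPase of the final membrane cut, had -0.07 (-0.14 to -0.0047). Intervals at any fold lay below 0 for 6 of the 14 and above 0 for 2, beside 22.0% and 23.0% of all tested genes. Those above 0, chosen after their values were seen, were CHMP4C and PRC1. CHMP4C, a subunit of the membrane-cutting ESCRT-III complex, had 0.39 (0.12 to 0.67). PRC1, a bundler of central spindle microtubules, had 0.26 (0.06 to 0.46). AURKC, the third Aurora kinase, had 22 and 20 counts and did not pass 1 CPM.

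The centriole list around PLK4 had a median of -0.14, with 11 of 17 below 0, 2 at least 1.5-fold lower and 1 higher. NEK7, a kinase of centrosome separation, had 188 and 114 counts and a log2 ratio of -0.62 (-0.97 to -0.28). CEP63, which helps place PLK4 at the centriole, had 58 and 18.68 expected counts and a log2 ratio of -1.48 (-2.34 to -0.74). SASS6, the cartwheel protein of new centrioles, had 24.8 and 44 expected counts and a log2 ratio of 0.90 (0.18 to 1.69). CEP63 and SASS6 had fewer than 100 summed counts and were chosen after their values were seen.

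Genes of the machinery that ends Aurora and PLK1 activity, and regulators of it, had ratios on both sides of 0. The anaphase-promoting complex, which marks AURKA, PLK1 and cyclins for degradation, had a median of -0.10 over its subunits and its regulators, which include the inhibitors FBXO5 and MAD2L1, with 12 of 17 below 0 and 0 past 1.5-fold. UBE2S, its chain-elongating enzyme, had 26914.8 and 35589.5 expected counts and a log2 ratio of 0.51 (0.48 to 0.53). CDC20, its mitotic activator, had 19216.5 and 17452.8 and a log2 ratio of -0.04 (-0.07 to -0.01). Phosphatases that oppose these kinases, listed with their regulators, had a median of -0.07, with 12 of 17 below 0 and 0 past 1.5-fold. The list includes MASTL, ENSA and ARPP19, which act to inhibit PP2A, and without these 3 the counts were 11 of 14 and the median -0.11. PPP1CA and PPP2R1A, subunits of the PP1 and PP2A phosphatases, had log2 ratios of 0.18 (0.14 to 0.22) and -0.0029 (-0.04 to 0.04).

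Regulators of G2 and mitotic transcription, which include the DREAM, MMB and NF-Y subunits, had a median of -0.14 with 13 of 20 below 0. LIN54, the subunit that reads the cell cycle homology region, was 1.62-fold lower, with 141 and 81 counts and a log2 ratio of -0.69 (-1.11 to -0.29). E2F5, a repressor E2F, was 1.52-fold higher, at 0.60 (0.21 to 1.01), and was under 1.5-fold with library totals as the scale. FOXM1 and MYBL2, activators of this gene class chosen after their values were seen, had -0.19 (-0.29 to -0.09) and -0.05 (-0.12 to 0.02).

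Family relatives of the 10 genes had a median of -0.15, with 8 of 12 measured below 0, 2 at least 1.5-fold lower and 1 higher. Those lower were NEK7, given above, and NEK3, chosen after its values were seen, with 36 and 17 counts. BIRC3, an inhibitor of apoptosis related to BIRC5 by its repeat, was 2.01-fold higher on 43 and 81 counts. Of the other polo-like kinases, named after their values were seen, PLK2 had a log2 ratio of 0.08 (-0.12 to 0.28) and PLK3 -0.15 (-0.21 to -0.09). None of the 10 Aurora, PLK1 and passenger genes is marked significant in the authors' deposited table, and neither is KAT7. What that mark requires was not examined here, and its absence does not show equal levels. P-values in the authors' deposited table compare these libraries and not the conditions, and are not given here.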

How the data were processed

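RNA-seq libraries were compared from 1 siControl and 1 siKAT7 culture of HCT116. The deposited table holds expected counts per gene, estimated with RSEM 1.3.3 on GRCh38.p13 per the submitters' processing notes, and the authors' gene model lengths. For the aligner, annotation release, RNA selection and strand setting, the sources used here give nothing. The count columns occur again under the same names with 0 differing cells and were used once. The column headed siHBO1 was read as siKAT7, since HBO1 is another name of KAT7. The 331 rows without a gene name (1.11% of counts in siControl, 1.67% in siKAT7) were left out. A second deposited table gives the authors' fold (a linear ratio), its log2 and p-values from an unnamed tool, of which only the log2 and the mark of significance are used.

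Expected counts were rounded and scaled with TMM factors (edgeR 4.0.16, R 4.3.3: 1.04 for siControl, 0.964 for siKAT7). Log2 ratios used CPM with a prior count of 0.5, and exact Clopper-Pearson 95% intervals came from the split of counts. Intervals of levels were exact Poisson, and pairs used the conditional odds ratio (SciPy 1.17.1). All intervals cover counting error only, since each group has 1 library. PCR copies without identifiers can be counted repeatedly, so counting error itself may be larger than the intervals show. Genes averaging 1 CPM or more were tested, and a gene was called at 1.5-fold with an interval excluding 0. The procedure was tested on counts simulated with counting error alone, so that check says nothing about spread between cultures. Positions and gene types came from GENCODE 29, promoters from RefSeq.

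The genes and lists were chosen with earlier results of these data known. Named were the 10 genes, KAT7, their neighbours and copies, and per list up to 4 genes called with at least 100 summed counts, otherwise the 2 with the most counts. Alternatives were other scalings (DESeq2 1.42.0 size factors among them), priors, filters, folds and intervals.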

Additional observations from a re-analysis of the deposited data

How the results depend on the processing

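With 1 library per group and no replicate, no left-out library could be tried. No paired analysis was possible because each group has a single library. Of 154 planned recomputations, 130 stayed within the counting interval or within 1.5 times the count, and 24 moved. For a median, the interval ran between the medians of the single genes' interval ends, which is wide. All list medians fell inside it, centromere recruitment at -0.23 among them, so staying inside says little about their stability. Library totals in place of TMM moved the summed passenger complex from -0.08 to -0.19. At a threshold of 0.32 on the log2 scale 1 of the 10 genes, AURKA, was lower; at any fold with an interval excluding 0, added after the data were seen, 5 were lower and 1 higher. The ratios of PLK1, AURKB, INCENP, BIRC5, CDCA8 and TPX2 left their counting intervals with library totals and with the authors' deposited log2 fold. Under both, PLK1 went from -0.17 to -0.27, BIRC5 from -0.07 to -0.18 and AURKB from 0.16 to 0.05. Counts over all genes moved as well. From 517 lower and 518 higher they became 843 lower with library totals, 781 lower with the authors' deposited log2 fold, 985 and 1008 without a filter, 60 and 109 among genes averaging 10 CPM or more, 144 and 179 at 2-fold, and 1436 and 1341 at 0.32 on the log2 scale. The medians of the 9 further lists stayed below 0 under the 3 other scalings and without a filter. At 10 CPM the median of the family relatives was 0.01, over 4 genes, and that of centromere recruitment -0.23, over 10. Left without PIF1, or without MASTL, ENSA and ARPP19, both chosen after the data were seen, the lists concerned kept medians below 0. Depth limits PLK4 and BORA, with intervals of -0.80 to 0.35 and -0.57 to 0.60.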
